A study of Mus musculus with 3 samples.

Results

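The genes described here encode keratins, nuclear lamins, the proteins of desmosomes, and the filament proteins desmin, nestin and GFAP. They were taken by symbol from the protein-coding genes of GENCODE M21 as all numbered keratins except Krt20, all numbered desmogleins, desmocollins and plakophilins, the lamins, and Dsp, Jup, Plec, Evpl, Ppl, Des, Nes and Gfap. This gave 76 of 55487 genes in the table, of which 21974 are protein-coding. The rule uses symbols only.

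RNA came from mpkDCT4a, an immortalised cell line of the mouse distal convoluted tubule, a kidney segment known for salt uptake by the thiazide-sensitive cotransporter. 3 libraries of cells with no labelled treatment, made from 500 ng of total RNA after removal of ribosomal RNA, form 1 group, so no conditions were compared. All were grown at 37 °C in 5% CO2 in DMEM/F-12 medium with fetal calf serum (2%), dexamethasone (50 nM), triiodothyronine (1 nM), epidermal growth factor (10 ng/ml), insulin (5 µg/ml), transferrin (5 µg/ml), selenate (90 nM), glutamine (2 mM), glucose (20 mM) and HEPES (20 mM). Whether the replicates are separate cultures is not stated in the labels. A p-value therefore reflects no more than the spread among these 3 samples, and that spread may be technical.

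Intermediate filaments are rope-like polymers that give cells resistance to stretch. Keratins form them in epithelia as obligate pairs of 1 type I and 1 type II chain. Krt8 and Krt18 are the first pair made in simple, single-layered epithelia, and tubule and duct cells of the kidney can add Krt7 and Krt19. In desmosomes the cadherins of neighbouring cells, desmogleins and desmocollins, bind plakoglobin and plakophilins inside each cell, and desmoplakin ties these to the keratin network. Lamins form the filament mesh under the inner nuclear membrane.

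Total counts were 436983 for replicate 1, 482418 for replicate 2 and 443192 for replicate 3, which is shallow. Levels are given as CPM, the count scaled to a common library size, in which a single count equalled 2.31, 2.07 and 2.24. Genes with a mean of 1 CPM or more count as detected, and 2 counts over the 3 libraries suffice for it. Where all libraries had 0 counts, a level of up to 2.20 CPM is still allowed, or 3 counts in the sum of the libraries. Intervals and limits cover counting error only. In RNA from whole cultures, fewer cells with a transcript and less transcript per cell cannot be told apart. Of 12 markers of the distal convoluted tubule 5 were detected, beside 50.6% of all protein-coding genes. Those detected were Wnk4 (mean 45.2 CPM), Cnnm2 (19.8 CPM), Trpm6 (8.84 CPM), Kcnj10 (6.67 CPM) and Egf (2.23 CPM, from 3 counts). The summed level of the 12 was 66.3 to 94.1 CPM. The defining genes Slc12a3 (the cotransporter) and Pvalb had 0 counts, as had Calb1, Klhl3, Emx1, Sall3 and Tmem52b. The 6 renal epithelial markers given here were detected at unequal levels. Pax8 stood at 164 ± 22.0 CPM (SD, n = 3), Cdh16 at 118 ± 14.1 CPM, Pax2 at 82.4 ± 6.89 CPM, Cdh1 at 63.8 ± 20.6 CPM and Lhx1 at 7.999 ± 2.04 CPM. Epcam had 0, 4 and 0 counts in replicates 1, 2 and 3.

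A small core of these genes was expressed and most were silent at this depth. Of the 76 genes 21 were detected, or 27.6%, against 50.6% of all protein-coding genes. 4 more, namely Krt5, Krt10, Krt28 and Krt79, had 1 count each, and 51 had none. A level of 10 CPM was reached by 17 of the 76, against 40.8% of all protein-coding genes. The families differed. Detected among the 76 were all 3 lamins, all 4 plakins and all 5 armadillo proteins (plakoglobin and the plakophilins), but only 1 of 9 desmosomal cadherins and 6 of 52 keratins. The median level of the 76 genes was 0 CPM, beside 1.46 CPM over all protein-coding genes. The 76 genes together took 0.447% of all counts.

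**Figure D1:**
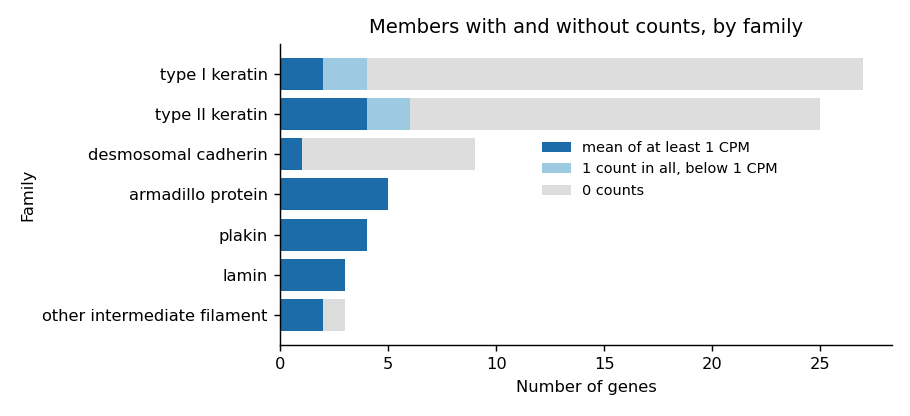
Number of genes in each family with a mean of at least 1 CPM, with 1 count in all, and with 0 counts over the 3 libraries. The grey bars of the keratins (23 type I and 19 type II genes) and desmosomal cadherins (8 genes) hold 50 of the 51 genes without counts.

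Type I keratins came down to a pair of genes. Krt18, the type I chain of simple epithelia (ENSMUSG00000023043, GRCm38 chromosome 15, 102028180 to 102032027, plus strand), had 186, 194 and 191 counts in replicates 1, 2 and 3, or 420 ± 15.5 CPM (SD, n = 3). Krt19, the small type I chain of ducts (ENSMUSG00000020911, chromosome 11, 100140810 to 100148665, minus strand), had 35, 31 and 39 counts, or 77.4 ± 11.9 CPM. Krt18 was above Krt19 in every library. Krt10, the type I keratin of the upper epidermis, had its only count in replicate 3, and Krt28, of the hair follicle's inner root sheath, in replicate 1. The other 23 type I genes had 0 counts. They included Krt23, the epidermal and stratified-layer genes Krt14, Krt15, Krt16 and Krt17, and all 9 hair shaft genes.

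Type II keratins had 3 genes at 10 CPM or more. Krt7, of ducts and simple glandular epithelia (ENSMUSG00000023039, chromosome 15, 101411043 to 101430313, plus strand), had 195, 181 and 179 counts, or 409 ± 38.1 CPM. Krt8, the partner of Krt18 (ENSMUSG00000049382, chromosome 15, 101996698 to 102004482, minus strand), had 125, 138 and 112 counts, or 275 ± 20.9 CPM. Krt7 took more reads than Krt8 in each library, though 29.7% of the 50-base stretches of Krt8 also occur in transcripts of other genes. Krt80, grouped here with the keratins of stratified epithelium and epidermis (chromosome 15, 101347444 to 101370162, minus strand), had 22, 22 and 24 counts, or 50.0 ± 4.15 CPM. Krt4, of the lining of mouth and oesophagus, had 2 counts, both in replicate 2, which put it at 1.38 ± 2.39 CPM and just past detection. Krt5, the basal-cell keratin, had 1 count in replicate 1 and Krt79 1 count in replicate 3. The remaining 19 type II genes had 0 counts, among them Krt1, Krt6a, Krt6b, Krt75, Krt76 and Krt78.

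On chromosome 15 the keratins with most counts lay at the ends of the cluster. Keratin genes sit in a pair of clusters, with type I genes on chromosome 11 and type II genes, plus Krt18, on chromosome 15. Of the 26 genes on chromosome 15, in a span of 685 kb, the first pair (Krt80 and Krt7, 63.6 kb apart by their starts) and the last pair (Krt8 and Krt18, 649 and 681 kb from the first start) held all levels of 10 CPM or more. The 22 genes between Krt7 and Krt8 had 4 counts in all, in Krt4, Krt5 and Krt79. On chromosome 11 only Krt19, the 21st of 26 genes, was detected. Its neighbours Krt15 and Krt9 had 0 counts.

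**Figure D2:**
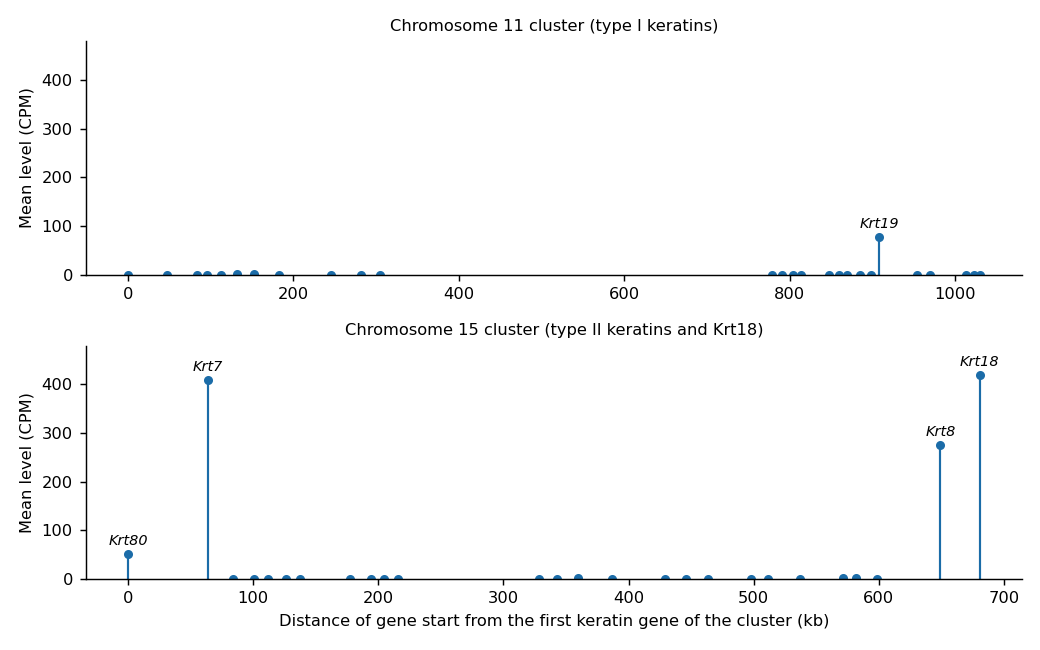
Mean level in CPM of each keratin gene (points on stems) against the distance of its start from the first keratin gene of its cluster, in kb, for chromosome 11 (above) and chromosome 15 (below). On chromosome 15 the tall stems stand at both ends, with Krt7 at 409 CPM, Krt8 at 275 CPM and Krt18 at 420 CPM, and Krt19 at 77.4 CPM is the single stem on chromosome 11.

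The promoters of the 3 leading keratins of chromosome 15 are shown with that of Krt5, the basal keratin of the same cluster with 1 count, since these windows stand beside genes of very different level. They are RefSeq windows of 300 bases in GRCm38.p6, from 250 before to 50 after RefSeq's start, printed 5′ to 3′ on the gene's strand. Capitals mark matches, on either strand, to the TATA box TATAAA, the GC box GGGCGG, the CCAAT box CCAAT, the AP-1 site TGANTCA and the AP-2 site GCCNNNGGC, and matches can overlap. RefSeq's starts of Krt18, Krt8 and Krt7 lie inside the GENCODE genes. The windows are Krt18 at chr15:102027966-102028265 (plus strand), Krt8 at chr15:102004293-102004592 (minus strand), Krt7 at chr15:101412153-101412452 (plus strand) and Krt5 at chr15:101712856-101713155 (minus strand).
Krt18: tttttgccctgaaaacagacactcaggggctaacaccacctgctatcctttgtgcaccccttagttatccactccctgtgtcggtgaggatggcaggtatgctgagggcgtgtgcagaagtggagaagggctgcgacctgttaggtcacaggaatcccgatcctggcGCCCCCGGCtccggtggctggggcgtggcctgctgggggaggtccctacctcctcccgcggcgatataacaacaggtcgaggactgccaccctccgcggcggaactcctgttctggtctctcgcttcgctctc
Krt8: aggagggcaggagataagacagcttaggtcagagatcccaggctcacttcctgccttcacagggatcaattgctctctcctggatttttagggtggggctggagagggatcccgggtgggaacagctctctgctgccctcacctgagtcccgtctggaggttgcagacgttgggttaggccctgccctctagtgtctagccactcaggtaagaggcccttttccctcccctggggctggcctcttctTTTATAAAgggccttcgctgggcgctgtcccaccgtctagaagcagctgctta
Krt7: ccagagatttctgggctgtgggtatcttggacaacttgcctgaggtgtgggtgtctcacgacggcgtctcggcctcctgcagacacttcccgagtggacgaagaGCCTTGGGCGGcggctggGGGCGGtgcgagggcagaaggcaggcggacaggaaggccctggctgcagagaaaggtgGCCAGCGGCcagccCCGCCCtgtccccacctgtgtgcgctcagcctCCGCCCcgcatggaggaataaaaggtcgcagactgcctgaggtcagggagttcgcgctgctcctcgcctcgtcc
Krt5: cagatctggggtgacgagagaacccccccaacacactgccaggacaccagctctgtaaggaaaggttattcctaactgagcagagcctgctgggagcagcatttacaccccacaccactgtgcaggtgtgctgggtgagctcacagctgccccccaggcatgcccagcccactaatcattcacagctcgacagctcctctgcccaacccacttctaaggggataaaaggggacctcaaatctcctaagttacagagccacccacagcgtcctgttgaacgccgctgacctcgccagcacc
Krt7 had 6 matches, namely 4 GC boxes and 2 AP-2 sites, of which 1 of each overlap. Krt18 had 1, an AP-2 site, and Krt8 had 1 stretch that reads as a TATA box on both strands. Krt5 had none. In all RefSeq windows of this length, TATAAA occurred for 15.7% of genes, GGGCGG for 38.2%, CCAAT for 41.1%, TGANTCA for 8.98% and GCCNNNGGC for 18.6%. A match is a run of letters and not a measured site.

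RefSeq windows were found for 43 of the 76 genes, 10 of them detected. The detected genes had a median of 61.0% G and C bases and 16 CG dinucleotides per window, and the 33 others 48.3% and 4. The same medians over all protein-coding genes were 61.3% and 21.5 for detected and 50.0% and 4 for undetected genes. GGGCGG was in the windows of 8 of 10 detected genes and 1 of 33 others, against 72.0% and 27.0% of detected and undetected protein-coding genes. TATAAA was in 1 of 10 and 17 of 33, against 7.98% and 21.6%. Of the 33 undetected genes 32 are keratins, so family and detection cannot be told apart in these counts. The window of Krt8 had 58.0% G and C bases, within the range of the detected genes (55.5% to 73.0%), and 6 CG dinucleotides, within the range of the undetected genes (2 to 11). That of Krt5 had 57.7% and 6.

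**Figure D3:**
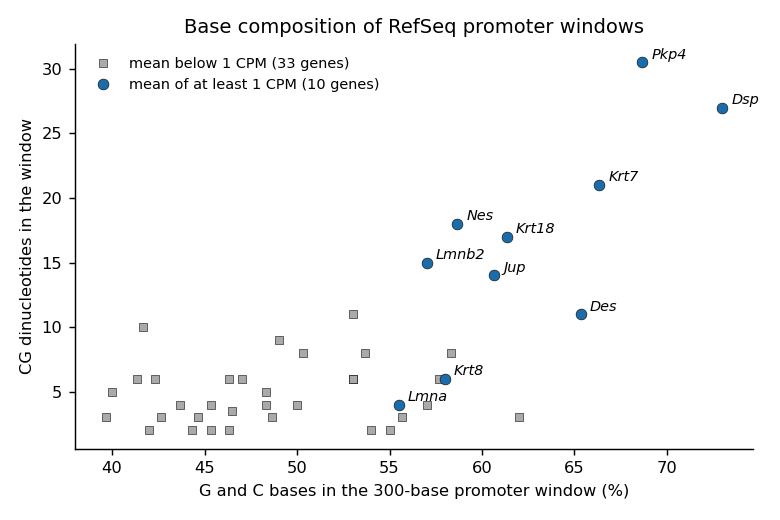
CG dinucleotides against the share of G and C bases in the RefSeq promoter windows of 43 genes, as a mean where a gene has several windows, with circles for detected and squares for undetected genes. 8 of the 10 circles reach 11 CG dinucleotides or more, and Krt8 with 6 and Lmna with 4 lie lower, at the height of the squares.

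Desmosomal cadherins were represented by a single gene. Dsg2, the desmoglein of simple epithelia and heart (ENSMUSG00000044393, chromosome 18, 20558074 to 20604521, plus strand), had 23, 22 and 28 counts, or 53.8 ± 8.60 CPM. The other desmogleins, Dsg1a, Dsg1b, Dsg1c, Dsg3 and Dsg4, which belong to skin and hair, had 0 counts. So did all 3 desmocollins, Dsc1, Dsc2 and Dsc3, including Dsc2, the partner of Dsg2 in simple epithelia. Per length Dsg2 was 15.5-fold higher than Dsc2 with Dsc2 set at 3 counts over all libraries. The lower end of the counting interval, with Dsc2 at 0, was 12.3-fold. With fewer counts the value set at 3 counts was 10.6 without replicate 1, 10.9 without replicate 2 and 9.57 without replicate 3.

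The cytoplasmic plaque of the desmosome was more fully expressed than its cadherins. Plakoglobin (Jup), which binds both desmosomal and classical cadherins, had 103, 102 and 94 counts, or 220 ± 15.4 CPM. Pkp4, an armadillo protein of adherens junctions and desmosomes, had 60, 62 and 60 counts (134 ± 5.05 CPM), and Pkp2, the plakophilin of simple epithelia and heart, had 25, 33 and 30 (64.4 ± 5.85 CPM). Pkp4 exceeded Pkp2 in every library. Pkp3, of most epithelia, had 2, 2 and 4 counts and Pkp1, of stratified epithelia, 1, 3 and 2. Per length of all annotated exons merged, Pkp4 made up 61.8 ± 3.62% of plakophilin transcripts, Pkp2 31.6 ± 2.30%, Pkp3 4.27 ± 1.76% and Pkp1 2.27 ± 1.02%. Per length of the principal transcript, Pkp4 made up 53.7 ± 3.58% and Pkp2 40.8 ± 2.63%.

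All 4 plakins among the 76 genes were detected. Plakins are giant proteins that link filaments to junctions and to other parts of the cytoskeleton. Plectin (Plec), the general cytolinker (chromosome 15, 76170974 to 76232574, minus strand), had 493, 581 and 486 counts, or 1143 ± 57.5 CPM, the most reads of the 76 genes. Its union exon length (18113 bases) is also the longest of the detected genes. Desmoplakin (Dsp) had 160, 186 and 172 counts (380 ± 9.28 CPM), and periplakin (Ppl) 69, 76 and 59 (150 ± 15.1 CPM). Envoplakin (Evpl), which pairs with periplakin in the envelope of skin cells, had 3, 11 and 10 counts (17.4 ± 9.05 CPM). Replicate 1 was low for Evpl, but the 3 counts did not differ by more than counting error (chi-square adjusted p = 0.902). Per length, Plec was 1.61 times Dsp (95% counting interval 1.45 to 1.78) and Ppl 7.87 times Evpl (5.14 to 12.6).

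All lamins were expressed. Lmna, which encodes lamins A and C (ENSMUSG00000028063, chromosome 3, 88480147 to 88509956, minus strand), had 174, 206 and 165 counts, or 399 ± 28.6 CPM. Lmnb1 (ENSMUSG00000024590, chromosome 18, 56707813 to 56753424, plus strand) had 77, 95 and 81 counts (185 ± 10.1 CPM), and Lmnb2 (chromosome 10, 80901203 to 80918245, minus strand) had 26, 32 and 20 (57.0 ± 11.04 CPM). Lmna was the highest and Lmnb2 the lowest in all 3 libraries by reads. Per union exon length (all annotated exons merged) the ratio of Lmna to Lmnb1 was 1.09, with a counting interval of 0.9398 to 1.27 that spans 1. Per length of the principal transcript it was 1.94, since the merged exons of Lmna (5838 bases) are longer than that transcript (3156 bases). Lmnb1 was 4.69 times Lmnb2 per union exon length (3.63 to 6.13) and 3.84 times per principal transcript. The ratio of A-type to B-type lamins was 0.902 ± 0.0247 per union exon length and 1.54 ± 0.0372 per principal transcript, so its direction depends on the length used.

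Of the filament genes that mark other lineages, nestin was expressed and desmin and GFAP were near or at 0. Nes, known from neural and muscle progenitors (ENSMUSG00000004891, chromosome 3, 87971078 to 87980451, plus strand), had 183, 198 and 182 counts, or 413 ± 7.81 CPM. Des, the muscle filament gene, had 1 count in each library, and Gfap, of astrocytes, had 0. Of 10 muscle markers 1 was detected, Tnnt2 at 10.2 ± 3.07 CPM, beside 50.6% of all protein-coding genes. The summed level of the list was 6.72 to 13.8 CPM. Without replicate 2 or replicate 3 the count of detected muscle markers was 2. Actc1 had 1 count, and Myod1, Myog, Acta1 and Ckm had 0. Of 10 neural and glial markers 3 were detected, beside the same 50.6%. These were Mbp at 36.6 ± 2.46 CPM, Tubb3 at 14.1 ± 5.94 CPM and Map2 at 5.96 ± 4.71 CPM. The summed level of that list was 49.7 to 67.2 CPM. Rbfox3, Snap25, Sox10 and Olig2 had 0 counts.

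**Figure D4:**
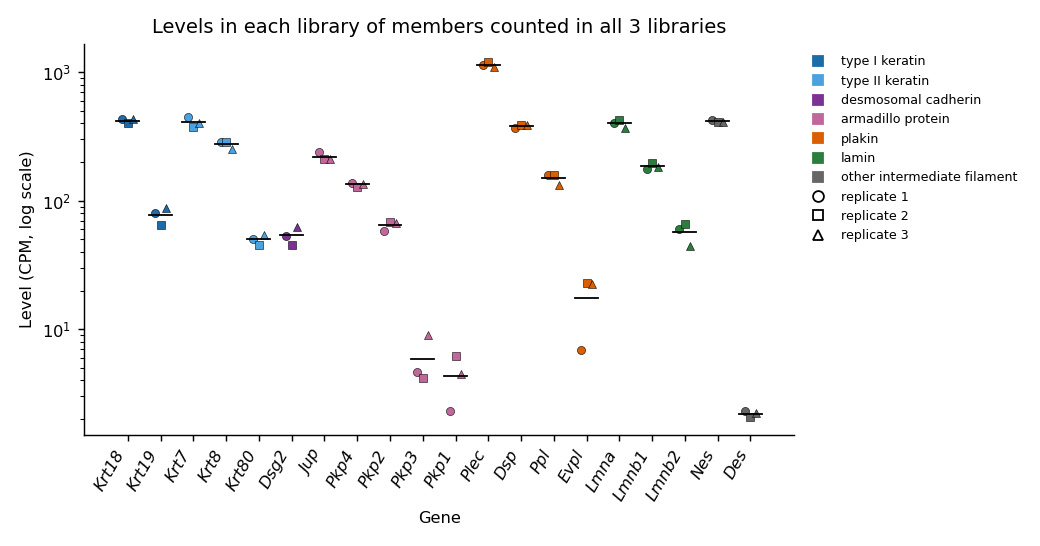
Level in CPM (log scale) of the 20 genes with a count in all 3 libraries, with 1 point per library (circle, square and triangle for replicates 1, 2 and 3), a line at the mean, and colours for families. Plec stands highest at 1143 CPM and Des lowest at 2.21 CPM, and the points spread widest for genes with few counts such as Evpl, Pkp1 and Pkp3.

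None of the 21 detected genes of the 76 differed between the replicates by more than counting error, and undetected genes were left out. By chi-square tests on the counts, with Benjamini-Hochberg adjustment, 0 of 21 passed, against 0.0401% of all detected genes (5 of 12473). With a share this low over all genes, 0 of 21 is no trait of these genes. At an unadjusted p under 0.05 it was also 0, against 4.89%. An exact multinomial test for genes of up to 300 counts, with the chi-square test kept for the others, found 0 as well. The smallest unadjusted chi-square p was 0.127, for Evpl. At this depth, changes in genes of few counts would not be detectable.

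Levels were set in order per length as TPM, in which all genes' counts per base are scaled to a common sum, from union exon length. Krt18 led with 1075 ± 35.2 TPM and lay at percentile 99.5 of the detected protein-coding genes, followed by Krt8 with 517 ± 35.8 TPM at percentile 98.2. Then came Lmna (252 ± 18.0 TPM), Nes (237 ± 1.32 TPM), Plec (232 ± 12.2 TPM), Lmnb1 (230 ± 14.6 TPM) and Krt7 (213 ± 17.2 TPM), each overlapping the next in the values of its 3 libraries. Krt19 (154 ± 23.6 TPM), Dsp (145 ± 5.45 TPM) and Jup (126 ± 7.09 TPM) followed. Below 100 TPM stood Pkp4 (86.3 ± 2.49 TPM), Ppl (79.9 ± 7.52 TPM), Lmnb2 (49.0 ± 9.38 TPM), Pkp2 (44.3 ± 4.58 TPM), Krt80 (28.8 ± 2.40 TPM), Dsg2 (24.0 ± 3.92 TPM) and Evpl (10.1 ± 5.31 TPM). Pkp3, Pkp1, Krt4 and Des ended the order between 6.02 and 2.16 TPM. Of the 20 neighbouring pairs in this order 12 overlapped and 8 did not. The 3 highest genes, Krt18, Krt8 and Lmna, were the same with the length of the principal transcript. The order was not computed per coding length, under which Krt7 was 1.59 times Krt8, so the leading places depend on the length used.

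Partner keratins were compared per length within the libraries. Krt8 had 0.482 times the level of Krt18 (95% counting interval 0.422 to 0.550), the same per principal transcript, and 0.567 times it per coding length. Krt19 had 0.142 times the level of Krt18 (0.115 to 0.176). Within type I keratins Krt18 made up 87.3 ± 1.496% and Krt19 12.4 ± 1.32% of transcripts per length. Against the basal keratins, Krt18 was 233-fold higher than Krt14 with Krt14 set at 3 counts over all libraries. The lower end of the 95% counting interval, with Krt14 at 0, was 189-fold. Krt8 was 421 times Krt5, with an interval of 75.1 to 16663 since Krt5 had 1 count. Krt5 had 0 counts without replicate 1, and Krt8 was then 93.5-fold higher with Krt5 set at 3 counts. The ratio was 266 without replicate 2 and 295 without replicate 3. For Krt18 and Krt14 the value set at 3 counts was 157, 154 and 155 without replicates 1, 2 and 3.

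The place of Krt7 depended on the length assigned to it. Its union exon length is 7049 bases, its principal transcript 4094 bases and the coding part 1371 bases, while those of Krt8 are 1958, 1958 and 1470 bases. Krt7 was therefore 0.411 times Krt8 per union exon length (0.360 to 0.470), 0.708 times per principal transcript and 1.59 times per coding length. The ratio of summed type I to type II keratins moved the opposite way over these lengths, with 1.62 ± 0.146, 1.33 ± 0.104 and 0.757 ± 0.0505. Krt7 was above Krt19 under all 3 lengths, by 1.39 (1.13 to 1.73), 2.03 and 4.66 times.

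Keratins and vimentin (Vim), the filament protein of mesenchymal and many cultured cells, were present together. Vim had 657, 803 and 659 counts, or 1552 ± 98.4 CPM, more than any keratin in each library. Krt18 had 0.889 times the level of Vim per union exon length (0.809 to 0.976) and 0.411 times per principal transcript. Without replicate 2 the first ratio was 0.946, with an interval that includes 1. All keratins together were 1.66 ± 0.150 times Vim per union exon length but 0.851 ± 0.0812 times per principal transcript, so the direction depends on the length used. Nes had 0.196 times the level of Vim (0.179 to 0.216), or 0.0951 times per principal transcript.

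Of the 22 gene pairs compared, 20 had a counting interval that excluded 1 and all had the same direction in the 3 libraries. With 3 libraries the exact two-sided sign-flip permutation test cannot give a p below 0.25, which all pairs reached, with and without Benjamini-Hochberg adjustment over the 22 pairs. Beside Lmna and Lmnb1, the pair without a clear difference was Dsp and Jup, with a ratio of 1.15 (0.999 to 1.34). Without replicate 1 it was 1.22, with an interval that excludes 1. Per principal transcript that ratio was 0.579.

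**Figure D5:**
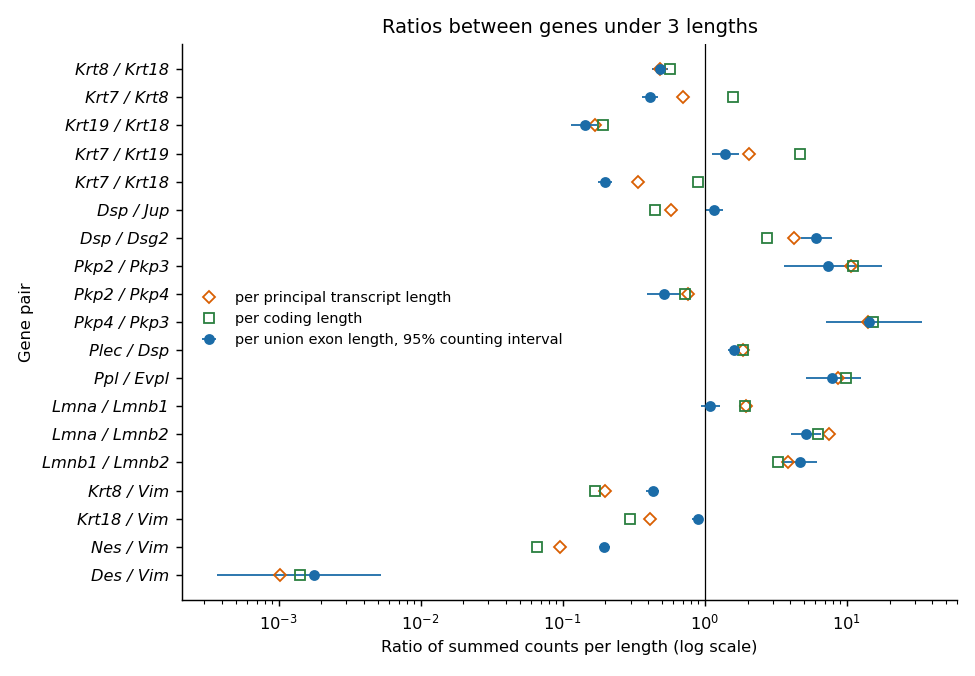
Ratios of summed counts per length (log scale) for 19 gene pairs, with points and 95% counting intervals for union exon length, diamonds for principal transcript length and squares for coding length. The pairs Krt7 with Krt8 and Dsp with Jup have symbols on both sides of 1, and the others keep to one side.

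Genes of the nuclear lamina and the cytolinkers were detected throughout. All 18 partners of the nuclear lamina were detected, with a median of 63.0 CPM, beside 50.6% of all protein-coding genes. They were led by Syne2, which encodes the linker nesprin-2 (749 ± 21.3 CPM), Tmpo, which encodes the lamin-binding LAP2 proteins (584 ± 7.24 CPM), the lamin B receptor gene Lbr (222 ± 7.78 CPM) and Tor1aip2 (191 ± 24.2 CPM). All 5 genes that process prelamin were detected too, with the protease gene Zmpste24 highest (128 ± 21.2 CPM). All 10 genes listed here as cytolinkers or keratin organisers were detected, not all of them known to bind keratin. They were led by Macf1 (696 ± 34.4 CPM) and Dst (446 ± 31.1 CPM), which are plakins, Pnn (87.3 ± 6.01 CPM) and Eppk1, the gene of epiplakin (81.0 ± 7.66 CPM). Of 7 hemidesmosome genes 6 were detected, with Itga6 at 183 ± 15.5 CPM, but its partner Itgb4 stood at 14.7 ± 2.85 CPM and Col17a1 had 0 counts.

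Genes of stratified and cornified epithelia were mostly at 0. The share to set beside each count of detected genes here is 50.6% of all protein-coding genes. The regulators of keratin genes and the other intermediate filament genes lay near it. Of 20 cornified envelope genes 3 were detected, Sprr1a (13.3 ± 4.45 CPM), Tgm1 (8.88 ± 2.51 CPM) and Cdsn (1.52 ± 1.31 CPM), and 17 had 0 counts, among them Ivl, Lor, Flg and Casp14. Of 16 regulators of keratin genes 8 were detected, led by Klf5 (142 ± 25.0 CPM), Tfap2a (139 ± 14.8 CPM), Elf3 (40.5 ± 2.80 CPM) and Hr (35.8 ± 12.1 CPM). Trp63, a master regulator of basal cells, and Ovol1, Ovol2 and Grhl3 had 0 counts. Of 7 urothelial markers 3 were detected, led by Upk3b at 13.8 ± 4.01 CPM, while Upk1a, Upk1b, Upk2 and Upk3a had 0 counts. The summed level of that list was 20.7 to 22.4 CPM. Of 12 other intermediate filament genes 6 were detected, namely Vim, Iffo2 (24.3 ± 5.09 CPM), Iffo1 (7.82 ± 7.32 CPM), Synm and Sync (4.33 ± 1.96 CPM each) and Prph, whereas the neurofilament genes Nefl, Nefm and Nefh had 0 counts.

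Reads shared between genes touch Krt8 and many of the silent keratins. Of the 50-base stretches of Krt8, 29.7% also occur in transcripts of other genes. The processed pseudogene Krt8-ps holds 26.9% of the stretches and had 3 counts. If reads with several matches were left out, which the sources used here do not say, Krt8 would be undercounted. The ratios of Krt8 to Krt18 and to Vim would then be too low, and that of Krt7 to Krt8 too high. No other detected gene reached 10%. Of the undetected genes 19 did, up to 57.2% for Krt6a, 50.1% for Krt6b and 48.9% for Dsg1b, so their counts are uncertain. Of the detected genes, 6 overlap annotated exons on the opposite strand. The overlap covers 5.86% of the exon bases of Des, 5.17% of Dsp, 5.16% of Krt8, 4.11% of Krt80, 3.99% of Dsg2 and 1.09% of Krt7. These genes on the opposite strand had 1 count in all, in that beside Krt8. On the same strand, Plec shares 1.13% of its exon bases with Parp10, which had 25 counts.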

How the data were processed

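The deposited table holds raw counts of reads per Ensembl gene in 3 libraries. The submitters' processing notes name STAR, HTSeq and mm10. Not given in the sources used here are their versions, the strand setting and how reads with several matches were handled. Columns were matched to replicates by number.

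Gene symbols, coordinates and exon lengths were taken from GENCODE M21 (GRCm38), where 55227 of 55487 identifiers matched. The 260 others held 313 counts. Totals were multiplied by TMM factors from edgeR 4.0.16 (R 4.3.3). The replicates' counts were compared gene by gene with a chi-square test, adjusted by Benjamini-Hochberg over 12473 genes, which was tested on simulated data. Gene pairs were compared per union exon length, with exact binomial intervals (95%) and a pseudocount of 0.5 CPM in log2 ratios. DESeq2 1.42.0 size factors served as an alternative, as did other lengths, thresholds and leaving out each replicate. Tests used scipy 1.17.1 in Python 3.11.15. Transcript and coding lengths of the principal transcript, in the APPRIS ranking, were added after the data were seen.

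The genes and lists were chosen with earlier results of these data known. All detected genes among the 76 were named, with those of 1 count, up to 6 others per family, all paired genes, and of each other list up to 4 of the highest genes and up to 4 without counts. All markers of the distal convoluted tubule were named. Further genes without counts, chosen after their values were seen, are named where a count is spelled out. Protein sequences were not used here, and 1 renal epithelial marker is not reported here.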

Additional observations from a re-analysis of the deposited data

How the results depend on the processing

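No paired analysis was possible because the samples form 1 group. With DESeq2 size factors or library totals the count of detected genes stayed at 21. It was 18 at a mean of 5 CPM, 17 at 10 CPM, 20 with a count required in every library, and 23 to 24 without one replicate. The count that differed between replicates was 0 under all 8 alternatives run, adjusted or unadjusted. The median of 0 CPM became 64.4 CPM over genes with a count. Without division by length, Krt7 over Krt8 was 1.48, Krt7 over Krt18 0.972, Dsp over Jup 1.73, Lmna over Lmnb1 2.15, type I over type II keratins 0.678 and A-type over B-type lamins 1.65. Per longest coding transcript Dsp over Jup was 0.579, Lmna over Lmnb1 1.94, type I over type II keratins 1.35 and the lamin ratio 1.56. Per principal transcript, added after the data were seen, these were 0.579, 1.94, 1.33 and 1.54. Per its coding length, also added then, Krt7 over Krt8 was 1.59, Krt7 over Krt18 0.8997, Dsp over Jup 0.448, Lmna over Lmnb1 1.90, type I over type II keratins 0.757 and the lamin ratio 1.46. These changes follow from the lengths alone. Leaving out 1 replicate gave 1.12 to 1.22 for Dsp over Jup, whose interval excluded 1 without replicate 1, and 0.859 to 0.946 for Krt18 over Vim, whose interval included 1 without replicate 2. With the gene at 0 set at 3 counts, Krt18 over Krt14 (154 to 157) and Dsg2 over Dsc2 (9.57 to 10.9) were lower with fewer counts. Set the same way, Krt8 over Krt5 was 93.5 without replicate 1 (0 counts of Krt5). From its counts it was 266 without replicate 2 and 295 without replicate 3. Of 22 pairs, 20 kept direction and call per principal transcript and 18 per coding length. At a mean of 5 and 10 CPM the detected genes of the other intermediate filament list (6) were 3 and 2 and the keratin regulators (8) were 5 and 4, with 5 regulators at a count in every library. At 10 CPM the cornified envelope list gave 1 gene (3), the distal convoluted tubule list 2 (5) and the urothelial list 1 (3). Genes of few counts are limited by depth.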
